A study of Bos taurus with 32 samples.

Results

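Solute carriers are the membrane proteins that move sugars, amino acids, ions, vitamins, nucleotide sugars and many other small molecules into and out of cells. The array held 93 solute carrier probes among its 15208 probes that were not controls. A probe was taken when its gene name began with SLC and a digit, or when its description contained the words solute carrier family. The mitochondrial (SLC25) and zinc (SLC30 and SLC39) carriers, 23 of 116 candidate probes, were left out. Of the 93 probes, 63 were found by gene name and 30 by description alone, and they stood for 92 symbols.

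The endometrium came from 8 non-lactating Japanese Black cows, slaughtered in the mid-luteal phase at Day 15 of the cycle. The 4 repeat breeder (RB) cows showed estrus and had not conceived after at least 3 inseminations, with no abnormality of uterus or ovary found by palpation. The 4 non-RB cows, called normally fertile in the labels, had conceived. Per the study's methods their pregnancies were ended with a prostaglandin F2α analogue and at least 2 normal cycles followed, a step described for these cows and not for the RB cows. RB is a breeding history and not a defined lesion. Caruncular endometrium (CAR), the gland-free site of placental attachment, and intercaruncular endometrium (ICAR), which holds the glands, were taken from the uterine horn on the side of the corpus luteum (ipsilateral) and from the other horn (contralateral). This gave 32 one-colour arrays, 4 in each of 8 groups. A level below is the log2 signal of a probe minus that of the 75th percentile on the same array, so that 0 is the level of that percentile. A difference is a difference of 2 such levels of the same probe, and levels of different probes cannot be compared.

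The ruminant conceptus lives on histotroph, the secretion of the uterine lumen, before it attaches. Facilitative carriers of the SLC2 family and sodium-coupled carriers of the SLC5 family bring glucose into cells, and other SLC5 carriers bring in myo-inositol or choline. Members of the SLC1, SLC6, SLC7, SLC38 and SLC43 families carry amino acids, while some SLC6 carriers move monoamines or creatine instead. SLC4, SLC9, SLC12, SLC26 and SLC34 carriers move bicarbonate, protons, chloride, sulfate and phosphate. Progesterone and conceptus signals are known to regulate several of these genes in the sheep uterus.

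One pair of arrays went against its labels. In the contralateral horn of RB replicate 3, the gland gene SPDEF was 3.98 higher on the array labelled CAR than on the array labelled ICAR, while the CAR minus ICAR difference lay between -3.76 and -0.35 in the other 15 pairs of the same group, horn and replicate number. BPIFB1, another gland product, was 4.14 higher on the array labelled CAR of that pair, against differences from -4.25 to 0.35 in the others. Over all probes tested, the CAR minus ICAR difference of the pair correlated with the median of the other 15 pairs at r = -0.83, where the others ranged from -0.16 to 0.80. The labels were kept as given. The main results that rest on the 2 arrays are given with and without them. Values over the 4 arrays of a cow do not depend on which of the 2 is CAR. Between 74.3% and 85.8% of probes were well above background, and the 75th percentile lay between 1165 and 4857 intensity units. ICAR contralateral non-RB 1 was the dimmest array on both measures, and the next lowest 75th percentile was 2246. The arrays of slide 1, CAR contralateral non-RB 2 and ICAR contralateral non-RB 1, had 351 and 100 spots marked as outliers by the scanner software. Only slides 6 and 8 held arrays of both RB and non-RB cows. In ipsilateral CAR no slide held both. Elsewhere a fit with slide as a block took the RB difference from those slides alone. The samples are pieces of whole endometrium, in which fewer cells of a type and less RNA per cell cannot be told apart.

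The probes are 60-mers. The 30-base stretches below belong to the members on which the comparisons turn, and they are printed as deposited, from the first base of the probe or, for SLC43A2, from base 28 to 57, where the capitals mark the polyadenylation hexamer AATAAA.
SLC5A3: caaatgttggaagaacctccacaagttaaa
SLC5A11: atctacatccagtccatcagctcctaccta
SLC5A7: ttcattcagacaaaatgcttctgacaagga
SLC2A1: tatctggacaaaccaacttgtaaatatacc
SLC2A12: tgaactagtgatgagagcaacttttatctt
SLC43A2: tttttataaagcAATAAAtccacttcccta
SLC1A3: atcacaggctctgcatatcacttgtaccca
The hexamer, searched on the printed strand, stood in 11 of the 93 member probes (11.8%) and in 11.3% of all probes. The 2 probes for SLC5A7, ABR2766 and A_73_119732, have the same sequence, so they are 2 spots of one probe and not separate evidence. On the 9 arrays where both were well above background they differed by a median of 0.26, and over all 32 arrays, most of them close to background, by up to 3.20.

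All 32 arrays detected 52 of the 93 probes well above background, at least 8 arrays detected 75, 1 to 7 arrays 11, and no array 7. By substrate class, 13 of 18 amino acid carriers, 10 of 13 carriers of glucose and other sugars, 6 of 18 inorganic ion carriers and 22 of 43 carriers of other organic molecules were above background throughout. The remaining probe, NHERF1, is a scaffold protein that regulates carriers, taken in under its array name SLC9A3R1. The 7 probes never above background were a probe for SLC5A1 under the name LOC531152, SLC13A4, SLC4A10, SLC17A2, SLC17A3, SLC22A9 and SLC6A2. SLC7A14, SLC7A9, SLC2A2, SLC2A3, SLC24A1, SLC4A1, SLC4A4, LOC540841 (described as SLC10A6), SLC10A4, SLCO1A2 and SLCO1B3 were above it on 1 to 7 arrays. These are readings of single probes: another probe, described in the file as similar to human SLC4A4 and not among the members, was above background on all 32 arrays. SLC2A2, the glucose carrier of liver and pancreas, and SLC6A2, the noradrenaline transporter, are known mainly from other tissues. No member spot was saturated.

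**Figure D1:**
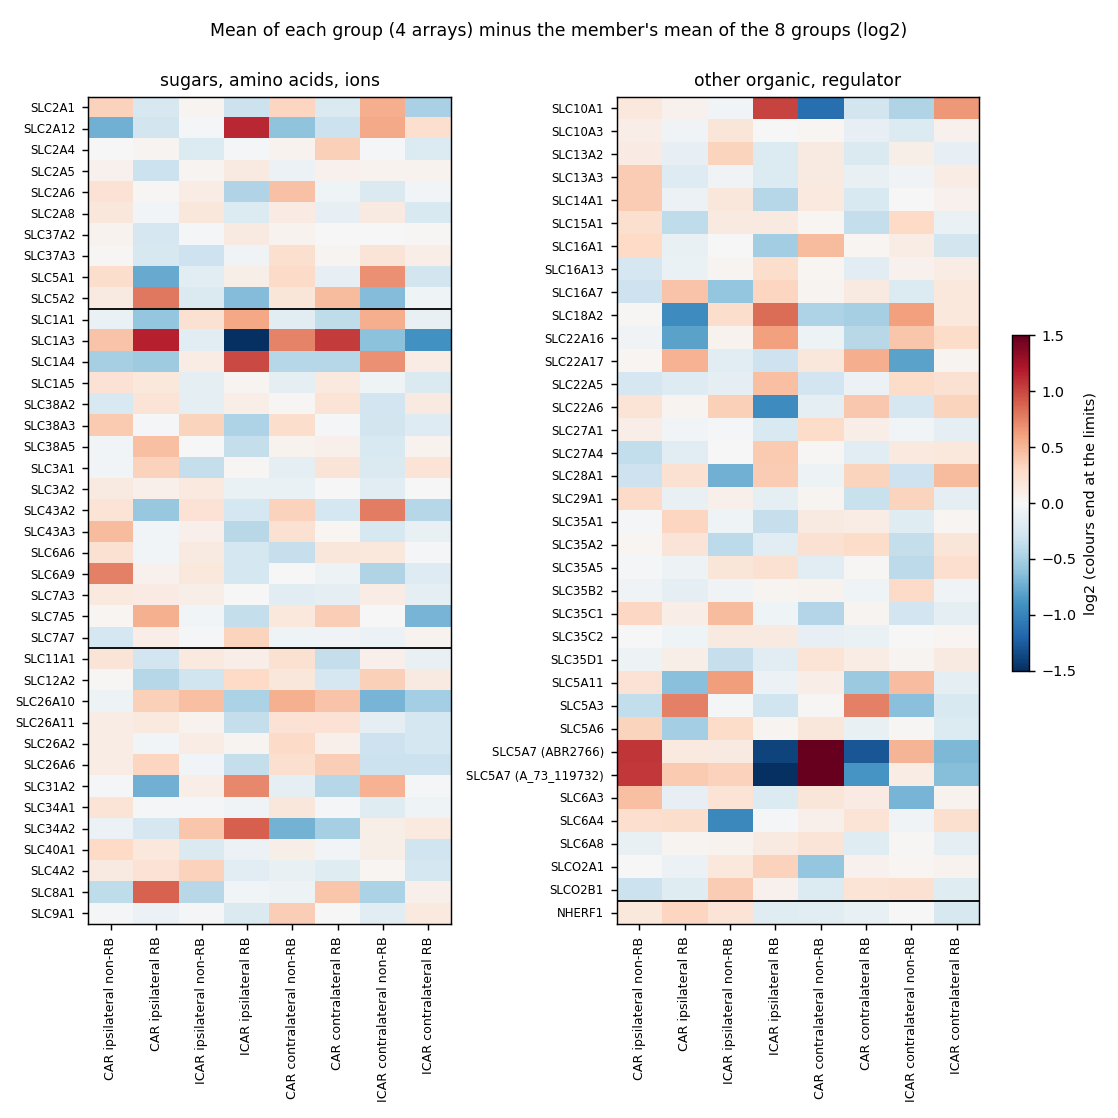
Mean level of each of the 75 members that were well above background on at least 8 arrays (rows, by substrate class) in the 8 groups (columns, labels as given), minus the mean of the 8 group means, in log2 units with colours ending at -1.5 and 1.5. SLC5A7, SLC1A3 and SLC10A1 have the widest spans, and SLC35C2 and SLC3A2 are nearly flat.

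Over the 8 groups the means of a member spanned a median of 0.76 log2 units, against 0.63 for all 12919 probes tested, and 28 of the 75 members (37.3%) spanned more than 1, against 21.1% of all probes. Without both contralateral arrays of RB 3 the median span was 0.86 for the members and 0.66 for all probes. The spread within groups was also wider among the members, with a median pooled SD of 0.62 against 0.50. SLC1A3, a glutamate and aspartate transporter, spanned 2.85, from -1.45 in ipsilateral CAR of RB cows to -4.30 in ipsilateral ICAR of RB cows. SLC10A1, a bile acid carrier, spanned 2.14, and SLC2A12, a facilitative glucose carrier, 1.85. SLC18A2, which loads monoamines into vesicles, spanned 1.79, and SLC34A2, a sodium phosphate cotransporter, 1.61. The flattest members were SLC35C2, with a span of 0.26, and SLC3A2, the heavy chain that partners several amino acid carriers, with 0.32.

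The main question was whether endometrial gene expression differs between RB and non-RB cows. No member differed at an adjusted p under 0.05 (limma, Benjamini-Hochberg over all probes tested) in CAR or ICAR of either horn or in the whole uterus, and no other probe did (0% of probes in each). The methods' t-test also gave 0 members and 0 probes after the same adjustment in the 4 compartments, and 2, 2, 3 and 2 members before it. At an unadjusted p under 0.05 in limma, ipsilateral CAR gave 1 of 78 members, beside 3.41% of all 13080 probes. That member was higher in RB (1.44% of all probes) and none was lower (1.96%). Ipsilateral ICAR gave 3 of 73, beside 3.69% of 12889 probes, with 1 higher (2.23%) and 2 lower (1.45%). Contralateral CAR gave 4 of 77, beside 1.74% of 13135, with 0 higher (1.2%) and 4 lower (0.533%). Contralateral ICAR gave 2 of 74, beside 1.6% of 12980, with 0 higher (0.701%) and 2 lower (0.901%). The whole uterus, with the arrays of the same group and replicate number averaged as 1 cow, gave 3 of 75, beside 2.21% of 12919, with 0 higher (1.41%) and 3 lower (0.805%). The shares of members were 1.28%, 4.11%, 5.19%, 2.7% and 4.0% in that order. Of the 4 in contralateral CAR, 2 were the spots of SLC5A7, and these alone were left without RB 3, beside 1.93% of probes. Of the 3 in the whole uterus, 2 were the same spots.

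The direction of the members as a set was not uniform. The median difference, RB minus non-RB, was -0.12 in ipsilateral CAR (all probes 0.02), -0.08 in ipsilateral ICAR (all probes -0.03), -0.06 in contralateral CAR (all probes 0.001) and 0.01 in contralateral ICAR (all probes 0.02). Without RB 3 it was 0.02 in ipsilateral ICAR, -0.12 in contralateral CAR and 0.08 in contralateral ICAR. In the whole uterus it was -0.08, which turned to 0.04 (all probes 0.02) with slide as a fixed block, and 49 of 75 members (65.3%) were lower in RB, against 48.0% of all probes. RB was lower in all 4 compartments for 13 of 75 members (17.3%), where 14.1% of all probes were, and higher in all 4 for 8 (10.7%), where 15.6% of all probes were. Carriers lower in all 4 were SLC2A1, SLC2A8, SLC43A2, SLC11A1, SLC13A2, SLC15A1, SLC16A1, SLC27A1, SLC29A1, SLC5A6, SLC5A11 and the 2 spots of SLC5A7. Those higher in all 4 were SLC38A2, SLC3A1, SLC7A7, SLC8A1, SLC16A7, SLC28A1, SLC35A2 and SLC6A4. Without both contralateral arrays of RB 3 the counts were again 13 and 8, with SLC26A2 in place of SLC15A1. The epithelial markers fixed for this work were also lower in RB cows: their median difference in the whole uterus was -0.42, with 0 of 6 probes at an unadjusted p under 0.05. The part of epithelial content in the members' differences was not tested.

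**Figure D2:**
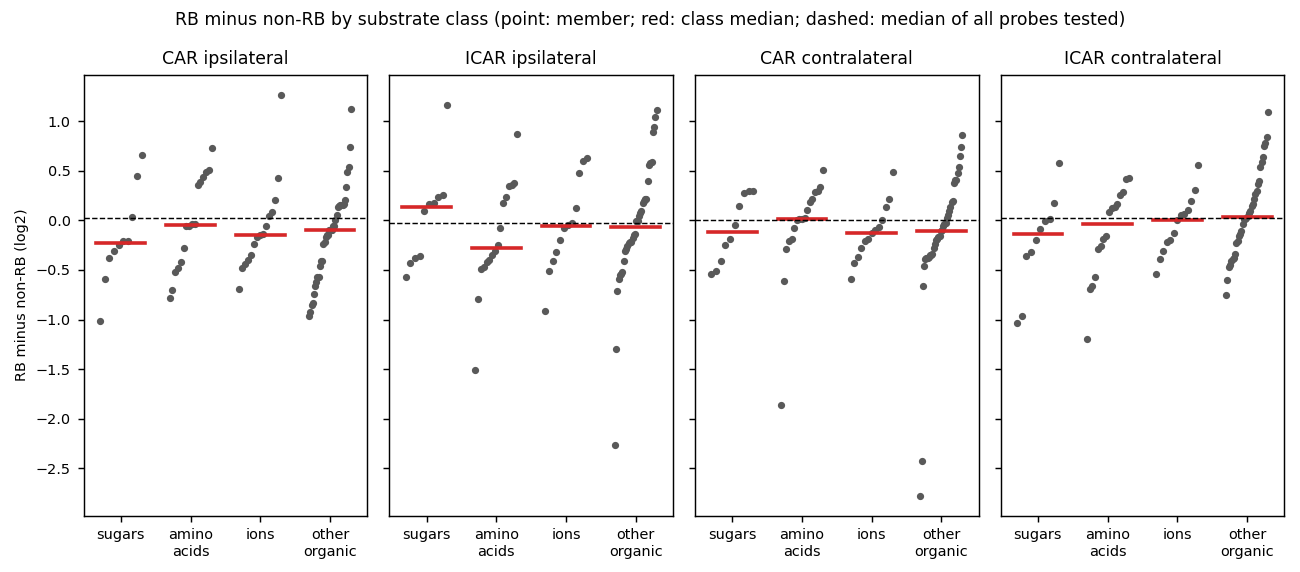
RB minus non-RB difference (log2, vertical axis) of every member tested, in 4 panels for the compartments and in columns for the substrate classes; each point is a member, the red bar is the class median and the dashed line the median of all probes tested. The class medians lie between -0.28 (amino acids, ipsilateral ICAR) and 0.13 (sugars, ipsilateral ICAR), and NHERF1 is not drawn.

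By class the medians were small. Carriers of glucose and other sugars had medians of -0.23 in ipsilateral CAR, 0.13 in ipsilateral ICAR, -0.12 in contralateral CAR and -0.14 in contralateral ICAR, with 7, 4, 6 and 7 of 10 lower in RB. Without RB 3 the last 2 were -0.17 and -0.06. Amino acid carriers had -0.05, -0.28, 0.02 and -0.03 in the same order, with 0.05 and -0.03 in the contralateral horn without RB 3. Inorganic ion carriers had -0.15, -0.06, -0.13 and 0.01, and 10 of 13 were lower in the whole uterus at a median of -0.10. Their contralateral medians without RB 3 were -0.16 and -0.10. Carriers of other organic molecules had -0.10, -0.07, -0.10 and 0.03, with -0.17 and 0.15 in the contralateral horn without RB 3.

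Among the glucose carriers, SLC2A1 (GLUT1), the basal glucose carrier of most cells, separated the groups in contralateral ICAR. The 4 non-RB arrays read 3.66, 3.43, 3.51 and 2.92, and the 4 RB arrays 2.30, 2.24, 2.67 and 2.17. The RB arrays were all below the lowest non-RB array. The means were 3.38 ± 0.32 (SD, n = 4) and 2.34 ± 0.23 (SD, n = 4). RB was 2.05-fold lower, a log2 difference of -1.04 (SE 0.24). The unadjusted p was 0.00209 and the adjusted p 0.9998 in limma, and the exact two-sided permutation p was 0.0286, the smallest that 4 arrays against 4 allow. Groups that did not overlap were found for 2 of 74 members here, SLC2A1 and SLC43A2, both lower in RB, beside 1.48% of all probes (0.67% with RB higher and 0.809% with RB lower). The difference stayed between -1.23 and -0.94 under all alternatives tried, and it was -1.14 without RB 3. In the scan sessions that held both groups it was -1.04 (1 RB against 2 non-RB arrays) and -1.13 (1 against 1), too few for a test.

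In the other compartments SLC2A1 was lower in RB by less than the spread allowed. In ipsilateral CAR the non-RB arrays read 4.12, 2.27, 2.88 and 3.46 and the RB arrays 2.62, 1.99, 2.998 and 2.75, a difference of -0.59. In ipsilateral ICAR they read 3.53, 1.71, 3.25 and 2.9999 against 2.92, 2.12, 2.98 and 2.01, a difference of -0.36. In contralateral CAR they read 4.04, 2.13, 3.44 and 3.03 against 2.44, 2.23, 3.51 and 2.30, a difference of -0.54. The groups overlapped in all 3, and single arrays moved the values. Leaving out non-RB 1 gave -0.28, -0.15 and -0.25 in that order, and leaving out non-RB 2 gave -0.90, -0.75 and -0.88. RB 3 was the high RB array in contralateral CAR, and without it the difference was -0.83. With slide as a block it was -1.37 in contralateral CAR and -0.02 in ipsilateral ICAR. Over the whole uterus RB was lower by a log2 difference of -0.63 (SE 0.31), with an unadjusted p of 0.0739 in limma and an exact two-sided permutation p of 0.114. Without non-RB 1, which had the highest SLC2A1 in all 4 compartments, it was -0.40. The members whose 8 group means followed SLC2A1 most closely among 74 were SLC43A2 (r = 0.93), SLC2A8 (r = 0.88) and the nucleoside carrier SLC29A1 (r = 0.85), a description over 8 group means from the same arrays.

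**Figure D3:**
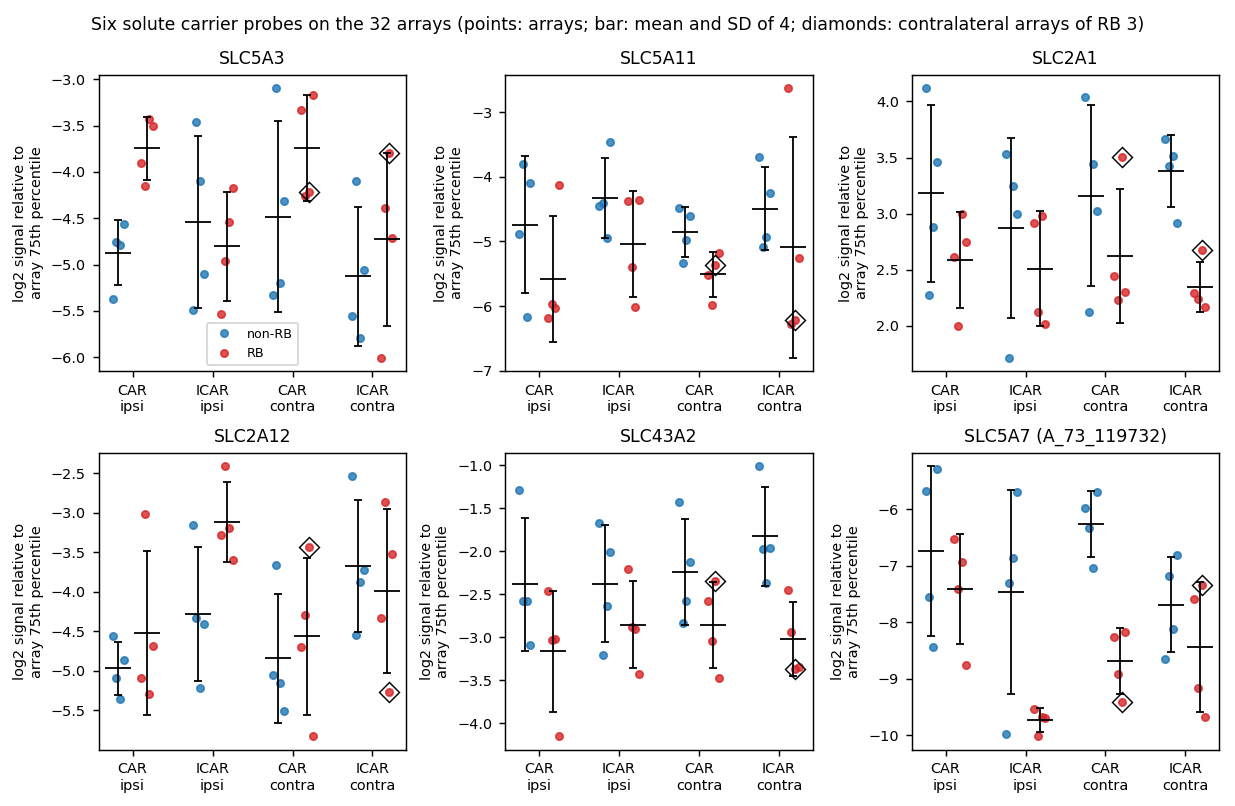
Level of 6 solute carrier probes (log2 signal relative to the array's 75th percentile, vertical axes) in CAR and ICAR of the ipsilateral and contralateral horn; points are single arrays, bars are the mean and SD of 4 arrays, and open diamonds mark the contralateral arrays of RB 3. SLC5A3 in ipsilateral CAR, SLC2A1 and SLC43A2 in contralateral ICAR and SLC5A7 in contralateral CAR are the panels' compartments where RB and non-RB arrays do not overlap.

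SLC2A12 (GLUT12) was the 1 sugar carrier past an unadjusted p of 0.05 in ipsilateral ICAR, where 6 of 10 were higher in RB cows. The non-RB arrays read -3.16, -4.33, -5.21 and -4.41 and the RB arrays -3.27, -2.41, -3.19 and -3.59. One non-RB array lay among the RB arrays. The difference was 1.16 (SE 0.43), or 2.24-fold, with an unadjusted p of 0.0235 and an adjusted p of 0.863 in limma and an exact two-sided permutation p of 0.114. The other compartments gave 0.45 in ipsilateral CAR, 0.28 in contralateral CAR and -0.32 in contralateral ICAR. Without RB 3 the contralateral values were -0.09 in CAR and 0.10 in ICAR. In the 3 scan sessions of ipsilateral ICAR, each with 1 or 2 arrays of a group, it was 0.36, 1.22 and 1.05. The gland markers had a median RB difference of 1.10 over 4 probes in ipsilateral ICAR, and the probes ranged from -0.52 to 1.89. Of the 4, 2 were higher in RB at an unadjusted p under 0.05 in limma. The part of gland content in the RB difference was not tested.

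SLC2A8, a carrier of internal membranes, was lower in RB by -0.21, -0.38, -0.25 and -0.36 in the order ipsilateral CAR and ICAR, contralateral CAR and ICAR, and by -0.30 (SE 0.20) in the whole uterus. SLC5A1 (SGLT1), the sodium-coupled glucose carrier of absorptive epithelia, gave -1.02, 0.24, -0.41 and -0.96 in that order and -0.54 (SE 0.55) in the whole uterus. The wide error of SLC5A1 went with replicate number. The 4 non-RB 1 arrays read -2.50, -3.35, -2.51 and -2.74, each the highest of its group, and the 4 RB 4 arrays read -6.63, -5.60, -5.90 and -5.81, each the lowest of its group. The whole-uterus difference was -0.04 without non-RB 1, -0.15 without RB 4, -0.82 without non-RB 2 and -1.07 with slide as a block. The group means closest to those of SLC5A1 were those of SLC43A2 (r = 0.88), SLC35B2 (r = 0.86) and SLC15A1 (r = 0.80).

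Among the amino acid carriers, SLC43A2 (LAT4), a facilitative carrier of large neutral amino acids, was lower in RB in all 4 compartments. In contralateral ICAR the non-RB arrays read -1.01, -1.97, -2.37 and -1.96 and the RB arrays -2.45, -2.94, -3.37 and -3.35. The groups did not overlap, although -2.37 and -2.45 were close. The means were -1.83 ± 0.58 and -3.02 ± 0.43 (SD), and RB was 2.29-fold lower, a difference of -1.19 (SE 0.35). The unadjusted p was 0.00728 and the adjusted p 0.9998 in limma, and the exact two-sided permutation p was 0.0286. With slide as a block the difference was -0.73, without RB 3 it was -1.08, and in the scan sessions that held both groups, with 1 RB array each, it was -1.18 and -0.47. Ipsilateral CAR gave -0.78, ipsilateral ICAR -0.47 and contralateral CAR -0.61, which was -0.79 without RB 3. Over the whole uterus it was -0.77 (SE 0.33), with an unadjusted p of 0.0454 and an exact two-sided permutation p of 0.0857. Non-RB 1 was the highest non-RB array in every compartment, and without it the whole-uterus difference was -0.48.

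SLC38A3, a glutamine carrier, was lower in ipsilateral ICAR of RB cows. The non-RB arrays read -6.70, -5.92, -6.86 and -7.16 and the RB arrays -7.65, -7.84, -7.42 and -6.92. RB 4 lay inside the non-RB range. The difference was -0.80 (SE 0.32) with an unadjusted p of 0.0318 in limma and an exact two-sided permutation p of 0.0571, and it was -0.35 after normexp background correction. SLC6A6, the taurine carrier, was the only member whose groups did not overlap there, beside 2.23% of all probes (0.908% with RB higher and 1.32% with RB lower). Its non-RB arrays read -6.31, -6.38, -6.23 and -6.49 and its RB arrays -6.86, -6.58, -6.89 and -6.65, a difference of only -0.40 (SE 0.19), with an unadjusted p of 0.0619 in limma. SLC7A9, which pairs with SLC3A1 to carry cystine and basic amino acids, reached an unadjusted p of 0.0488 in contralateral CAR. It was well above background on 3 non-RB arrays and 1 RB array there, so that the fitted difference of -1.87 rests on readings close to background. After normexp background correction it was -0.18, and without RB 3 its unadjusted p was 0.0954.

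Some amino acid carriers were higher in RB cows without reaching the threshold. SLC3A1 gave 0.39, 0.38, 0.34 and 0.41 over the 4 compartments and 0.38 (SE 0.22) in the whole uterus, with an unadjusted p of 0.116 in limma. Without non-RB 2 the whole-uterus value was 0.23. SLC38A2, a carrier of small neutral amino acids, gave 0.44, 0.24, 0.18 and 0.43. SLC7A5 (LAT1), which exchanges large neutral amino acids, had no common direction, with 0.51, -0.31, 0.22 and -0.69 in the same order. Without RB 3 its value in contralateral ICAR, the last of these, was -1.01 with an unadjusted p of 0.0176 in limma.

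No inorganic ion carrier reached an unadjusted p under 0.05 in any RB comparison. SLC31A2, a copper carrier, gave -0.69 in ipsilateral CAR of RB cows, with an unadjusted p of 0.0742 in limma. SLC26A10 was -0.92 (SE 0.48) in ipsilateral ICAR, with an unadjusted p of 0.0873. SLC11A1, the metal carrier of macrophage phagosomes, was -0.59 in contralateral CAR, with an unadjusted p of 0.0922. SLC8A1, a sodium and calcium exchanger, had the largest difference of the class, 1.27 (SE 0.75) in ipsilateral CAR, and its SDs of 1.46 and 1.17 were as large. It was well above background on 1 of 4 non-RB and 3 of 4 RB arrays there, with non-RB readings of -9.99, -7.93, -7.72 and -9.69.

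The strongest separation in ipsilateral CAR was that of SLC5A3 (SMIT1), which brings myo-inositol into cells together with sodium. The non-RB arrays read -5.37, -4.76, -4.79 and -4.56 and the RB arrays -3.90, -4.15, -3.42 and -3.51. All RB arrays lay above all non-RB arrays, which held for 1 of 78 members and 1.97% of all probes in this compartment (0.665% with RB higher and 1.31% with RB lower). The means were -4.87 ± 0.35 and -3.75 ± 0.34 (SD), and RB was 2.18-fold higher, a difference of 1.12 (SE 0.28). The unadjusted p was 0.00251 and the adjusted p 0.9997 in limma, and the exact two-sided permutation p was 0.0286. Leaving out any single array moved the difference within 0.96 to 1.26, and normexp background correction lowered it to 0.72. In the scan sessions that held both groups it was 1.24 (3 RB against 2 non-RB arrays) and 1.05 (1 against 1). No slide held both groups in this compartment, so slide and group cannot be told apart there. SLC5A3 was one of 3 members that the study names for their fold, so the direction is not independent evidence.

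Outside ipsilateral CAR the SLC5A3 groups overlapped. Contralateral CAR read -5.33, -3.09, -5.20 and -4.31 on the non-RB arrays and -3.33, -4.26, -4.22 and -3.17 on the RB arrays, a difference of 0.74. Ipsilateral ICAR gave -0.26 and contralateral ICAR 0.40. Without RB 3 the contralateral values were 0.90 in CAR and 0.09 in ICAR. With slide as a block contralateral CAR gave 2.01 and contralateral ICAR -0.41. Contralateral CAR was 0.46 without non-RB 1 and 1.20 without non-RB 2. The whole uterus gave 0.50 (SE 0.33), with an unadjusted p of 0.165 in limma. It was 0.20 after normexp correction, 0.30 with slide as a block, 0.27 without non-RB 1 and 0.80 without non-RB 2.

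SLC5A11 (SMIT2), the other sodium and myo-inositol cotransporter, ran the other way. It was lower in RB by -0.83 in ipsilateral CAR, -0.72 in ipsilateral ICAR, -0.66 in contralateral CAR and -0.60 in contralateral ICAR. Single arrays moved these values, and contralateral CAR was -0.35 after normexp correction. Ipsilateral CAR was -0.52 without non-RB 2, -1.31 without non-RB 3 and -1.32 without RB 4. Ipsilateral ICAR was -0.43 without non-RB 4 and -0.39 without RB 3. Contralateral ICAR was -0.34 without non-RB 1, -1.42 without RB 1, -0.21 without RB 2 and -0.23 without RB 3. In contralateral CAR the non-RB arrays read -4.49, -5.33, -4.98 and -4.61 and the RB arrays -5.52, -5.98, -5.36 and -5.17. One non-RB array lay within the RB range. The unadjusted p was 0.0404 and the adjusted p 0.9998 in limma, the exact two-sided permutation p was 0.0571, and the unadjusted p was 0.0518 without RB 3. Over the whole uterus the difference was -0.70 (SE 0.36) with an unadjusted p of 0.0849. With slide as a block the direction turned in ipsilateral ICAR (0.31), contralateral ICAR (1.06) and the whole uterus (0.35). SLC5A11 too is named by the study for its fold, as is SLC2A1.

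SLC5A7, the high-affinity choline carrier known from cholinergic nerve endings, was well above background on 15 of the 32 arrays by 1 spot and on 10 by the other. Spot A_73_119732 in contralateral CAR read -5.98, -6.33, -7.04 and -5.70 in non-RB cows, all well above background, and -8.26, -8.91, -9.41 and -8.17 in RB cows, none of them well above background. The non-RB level was at least 3.03-fold higher, counted against the lowest signal that was well above background. Spot ABR2766, of the same sequence, read -6.09, -7.43, -7.54 and -5.96 against -9.56, -10.69, -10.10 and -7.79. The RB and non-RB arrays of neither spot overlapped, and these 2 spots were the only members without overlap, beside 1.37% of all probes (0.929% with RB higher and 0.442% with RB lower). The fitted differences were -2.43 (SE 0.38, unadjusted p = 0.000129) and -2.78 (SE 0.64, unadjusted p = 0.0019), with an adjusted p of 0.9998 for both in limma. After normexp background correction they were -0.46 and -0.40. In this compartment A_73_119732 passed the filter through non-RB arrays alone and ABR2766 mainly through them, so that a difference was built into their selection.

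In ipsilateral ICAR spot A_73_119732 read -9.98, -7.31, -6.86 and -5.71 in non-RB cows, of which 2 were well above background, and -9.53, -10.02, -9.69 and -9.69 in RB cows, of which none was. Non-RB was at least 1.12-fold higher. The fitted difference of -2.27 had an unadjusted p of 0.0137 and an adjusted p of 0.863 in limma, and was -0.51 after normexp correction. Here too the spot passed the filter through non-RB arrays alone, so that a difference was built into its selection. Over the whole uterus the 2 spots gave -1.60 (SE 0.33) and -1.53 (SE 0.40), and ABR2766 averaged -9.05 ± 0.34 in the RB cows against -7.45 ± 0.69 in the others (SD), with no overlap of the cows for either spot, beside 1.19% of all probes (0.658% with RB higher and 0.534% with RB lower). Normexp correction gave -0.59 and -0.57. ABR2766 passed the filter for the whole uterus with 10 arrays well above background and A_73_119732 with 15. The bright non-RB arrays of contralateral CAR were among them, so that this comparison is not free of the same selection. Without RB 3 the contralateral CAR differences were -2.18 for A_73_119732 and -2.59 for ABR2766.

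None of the remaining organic carriers reached an unadjusted p under 0.05 in limma in an RB comparison, although some differences were as large. SLC10A1, the bile acid carrier, was -0.09 in ipsilateral CAR, 1.05 in ipsilateral ICAR, 0.86 in contralateral CAR and 1.10 in contralateral ICAR. SLC16A1 (MCT1), which carries lactate and other monocarboxylates, was -0.41, -0.52, -0.45 and -0.38 over the 4 compartments and -0.44 (SE 0.31) in the whole uterus, and without non-RB 3 the latter was -0.11. SLC29A1, an equilibrative nucleoside carrier, was -0.40, -0.22, -0.37 and -0.47. SLC28A1, a concentrative carrier of pyrimidine nucleosides, was 0.54, 1.11, 0.41 and 0.78 and rested on RB 2 alone. Its RB 2 arrays read -2.76, -2.76, -3.33 and -2.69, above all other 28 arrays of the series, and without RB 2 the whole-uterus difference went from 0.71 (SE 0.61) to -0.01.

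The second comparison the design implies is between caruncular and intercaruncular endometrium. Over all 32 arrays as labelled, no member passed an adjusted p under 0.05 in limma, where 1.35% of 12919 probes did, and 18 of 75 members had an unadjusted p under 0.05, beside 16.2% of all probes. The 18 were 11 of higher and 7 of lower level in CAR, beside 8.69% and 7.55% of all probes. This fit took the 32 arrays as separate samples, although CAR and ICAR were taken from the same cows and the labels do not tie an array to a cow. With the replicate number as a block, 7 members passed, beside 8.41% of all probes. With 1 difference per cow none passed. Of the 18, 16 ran against their own direction in the pair labelled RB 3 contralateral. In the same unblocked limma fit without both of those arrays, 10 members passed an adjusted p under 0.05, 6 higher and 4 lower in CAR. Beside them, 9.9% of 12908 probes passed (4.98% higher and 4.92% lower). Leaving out the contralateral arrays of RB 3 was decided after the values were seen. They are the arrays whose gland genes ran against their labels.

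**Figure D4:**
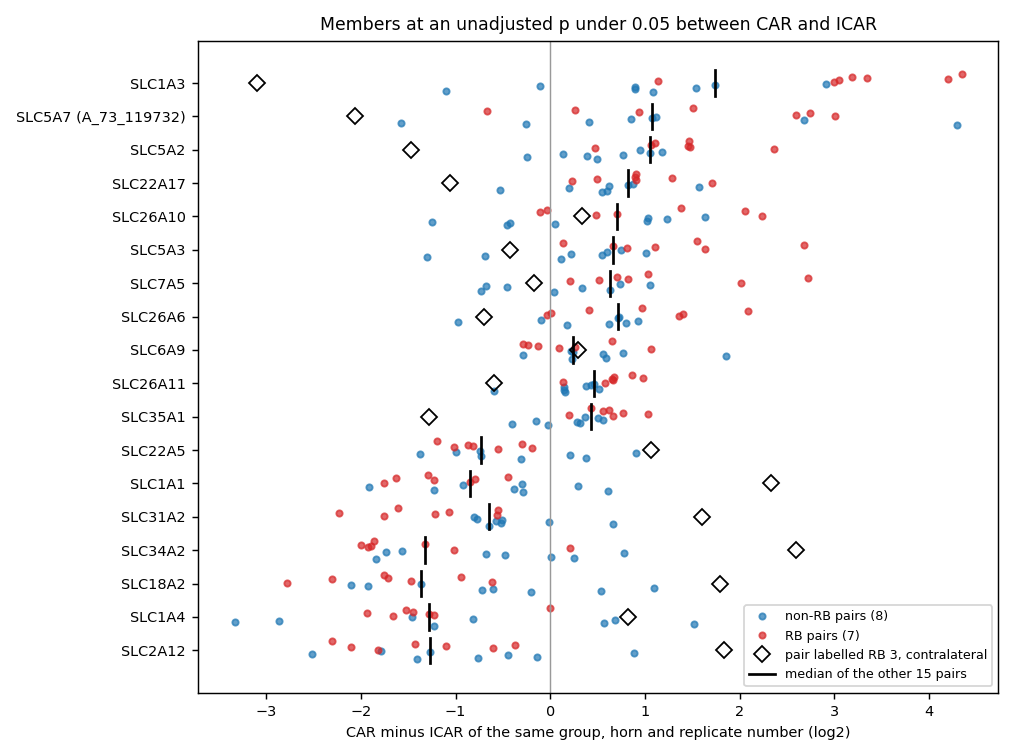
CAR minus ICAR difference (log2, horizontal axis) of the 18 members at an unadjusted p under 0.05, for each pair of arrays of the same group, horn and replicate number; filled points are non-RB and RB pairs, the black bar is the median of 15 pairs and the open diamond is the pair labelled RB 3, contralateral. The diamond lies on the other side of 0 from the black bar for 16 of the 18 members.

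SLC1A3, the glutamate carrier, had the largest difference. CAR read -1.77 ± 1.42 and ICAR -3.46 ± 1.49 (SD, 16 arrays each), a difference of 1.69 (SE 0.50), or 3.22-fold, with an adjusted p of 0.070 in limma. Without the RB 3 contralateral pair it was 2.01 (SE 0.48), or 4.02-fold, with an adjusted p of 0.00668. CAR was higher in 13 of the other 15 pairs, which ranged from -1.10 to 4.35, and the pair labelled RB 3 contralateral read -3.09. In ipsilateral RB cows CAR read -0.92, -4.26, -0.56 and -0.06 and ICAR -3.92, -5.39, -3.61 and -4.26. In ipsilateral non-RB cows CAR read -3.60, -2.23, -0.13 and -2.79 and ICAR -4.68, -1.12, -1.02 and -4.33. RB 2 was the low CAR array, and non-RB 2 and 3 were the high ICAR arrays.

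SLC5A2 (SGLT2), a sodium-coupled glucose carrier known from the kidney, was higher in CAR, at -1.61 ± 0.68 against -2.40 ± 0.66, a difference of 0.79 (SE 0.23) with an adjusted p of 0.0662 in limma. Without the pair it was 0.94 (SE 0.22) with an adjusted p of 0.00582, and 14 of the other 15 pairs ran that way. SLC2A12, the other glucose carrier, was lower in CAR, at -4.72 ± 0.78 against -3.76 ± 0.86, a difference of -0.96 (SE 0.28) with an adjusted p of 0.0653. Without the pair it was -1.14 (SE 0.26), 2.21-fold, with an adjusted p of 0.00511, and 14 of the other 15 pairs were negative. SLC31A2, the copper carrier, was lower in CAR, at 1.28 ± 0.60 against 1.94 ± 0.59, and without the pair by -0.81 (SE 0.19) with an adjusted p of 0.00591.

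The other members that passed without the pair were SLC22A17, a receptor and carrier for siderophore-bound iron, with 0.74 (SE 0.21, adjusted p = 0.0217 in limma), and SLC35A1, which brings CMP-sialic acid into the Golgi, with 0.38 (SE 0.11, adjusted p = 0.0195). SLC26A6, an anion exchanger, had 0.61 (SE 0.20, adjusted p = 0.0476). SLC5A7 spot A_73_119732 had 1.26 (SE 0.37, adjusted p = 0.0256 in limma). Spot ABR2766, of the same sequence, had 0.89 (SE 0.37, adjusted p = 0.139) and did not pass. SLC34A2, the phosphate cotransporter of secretory epithelia, had -1.004 (SE 0.30, adjusted p = 0.0314). With normexp correction and all 32 arrays the differences were 0.16 for SLC26A6, 0.18 for SLC5A7 spot A_73_119732 and -0.36 for SLC34A2. SLC18A2, the vesicular monoamine carrier, was lower in CAR by -1.12 (SE 0.30, adjusted p = 0.0147). SLC1A1, a second glutamate carrier, was lower in CAR in the same fit by -0.81 (SE 0.28) and missed the threshold at an adjusted p of 0.0632.

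By class and over all 32 arrays, the amino acid carriers had a median CAR minus ICAR difference of 0.14, the ion carriers 0.16, the sugar carriers 0.05 and the other organic carriers -0.03, where all probes had 0.02. The glutamate carriers SLC1A3 and SLC1A1 had fitted differences of opposite sign. Cell type markers moved with the same contrast over all 32 arrays. Of 4 gland probes, 2 were lower in CAR at an adjusted p under 0.05, with a median of -1.19. Of 6 epithelial probes 3 were lower at an unadjusted p under 0.05, with a median of -0.38, and 5 of 8 stromal probes were higher, with a median of 0.42. The summed linear level of the gland markers ranged from 0.73 to 3.06 in ipsilateral CAR and from 1.01 to 5.56 in ipsilateral ICAR of non-RB cows, in multiples of the 75th percentile. In RB cows it ranged from 0.92 to 1.80 in ipsilateral CAR and from 3.70 to 6.15 in ipsilateral ICAR, without overlap. In the contralateral horn, as labelled, the ranges of CAR and ICAR overlapped in both groups. The part of the cell type markers in the members' differences was not tested.

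The horns differed little. No member reached an unadjusted p under 0.05 between the ipsilateral and contralateral horn (limma, 32 arrays), where 1.36% of all probes did (0.875% higher and 0.488% lower in the ipsilateral horn) and none passed the adjusted threshold. Without both contralateral arrays of RB 3 it was again 0 members. The lowest unadjusted p was 0.0537 for SLC6A9, a glycine carrier, 0.36 (SE 0.18) higher in the ipsilateral horn. SLC10A1 was 0.60 and SLC34A2 0.49 higher there, and SLC37A3, a sugar phosphate carrier, was -0.29, the lowest of all members. For SLC10A1 the SE was 0.38.

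Whether the RB difference itself differed between compartments was tested on the differences within cows. Between CAR and ICAR no member reached an unadjusted p under 0.05 with all arrays in limma, where 0.882% of 12919 probes did (0.581% with the RB difference higher in CAR and 0.302% lower). The lowest p was that of SLC5A3, whose RB difference was 0.86 (SE 0.40) higher in CAR than in ICAR, at an unadjusted p of 0.0540 and an adjusted p of 0.9995. Without both contralateral arrays of RB 3, 7 of 75 members had an unadjusted p under 0.05, beside 5.18% of 12908 probes, and still none an adjusted one. They were 3 higher (3.09%) and 4 lower (2.09%). SLC1A3 led them with 2.18 (SE 0.60, unadjusted p = 0.00473, adjusted p = 0.855), followed by SLC22A16 with -1.21 (SE 0.40), SLC5A3 with 1.06 (SE 0.35), SLC5A2 with 0.77 (SE 0.26), SLC31A2 with -0.88 (SE 0.31), SLC12A2 with -0.80 (SE 0.33) and SLC11A1 with -0.50 (SE 0.22). The CAR minus ICAR difference of SLC1A3 was thus larger in RB than in non-RB cows in that fit. In the 7 RB pairs used it was positive throughout, and in the 8 non-RB pairs it was negative in 2, both of non-RB 2 (-1.10 and -0.11). Over all probes tested, the non-RB 2 pairs correlated with the median of the other pairs at only r = -0.16 (ipsilateral) and 0.05 (contralateral). They were kept, while the RB pair was left out after the values were seen.

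Between horns, 6 of 75 members had an unadjusted p under 0.05, beside 5.98% of 12919 probes, with 1 higher (1.83%) and 5 lower (4.16%), and all had an adjusted p of 0.7988 in limma. SLC2A12 had the smallest p. The ipsilateral level exceeded the contralateral one by 0.46 ± 0.32 in RB cows and by -0.37 ± 0.38 in non-RB cows (SD), an RB difference 0.82 (SE 0.24) higher in the ipsilateral horn, with an unadjusted p of 0.00694. SLC38A3 gave -0.51 (SE 0.19), SLC6A9 -0.65 (SE 0.26), SLC6A3, the dopamine carrier, -0.83 (SE 0.29), SLC22A6, an organic anion carrier, -1.30 (SE 0.49) and the GDP-fucose carrier SLC35C1 -0.70 (SE 0.31). For SLC22A6 the array ICAR ipsilateral RB 3 read -9.98 where the other RB arrays read -5.73, -5.53 and -4.79. After normexp correction SLC38A3 gave 0.004, SLC6A3 -0.09, SLC22A6 -0.27 and SLC35C1 -0.13. Without both contralateral arrays of RB 3, 3 members were left at an unadjusted p under 0.05 (beside 4.39% of probes): SLC2A12 at 0.94 (SE 0.26), SLC6A3 at -0.96 (SE 0.31) and SLC38A3 at -0.56 (SE 0.22).

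Part of the spread among the members went with the replicate number. The labels do not state that a number marks a cow. For 34 of the 75 members some replicate number was the highest or the lowest of its group in all 4 compartments. For 17 its 4 arrays did not overlap the other 12 of the group. The 34 and the 17 were not counted over all probes, so they cannot be called high or low. Among non-RB cows a number was the highest in all 4 compartments for 16.2% of members, beside 10.8% of all probes, and among RB cows for 20.3%, beside 11.7%. For the lowest level the shares were 18.9% beside 11.4% among non-RB and 8.11% beside 12.7% among RB cows. The mean of the 4 arrays of RB 3 does not depend on which contralateral array is CAR.

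The carnitine carrier SLC22A16 was the widest case among non-RB cows. Its non-RB 3 arrays averaged -2.81, where the other 12 non-RB arrays averaged 0.50, a difference of -3.31. Non-RB 3 was also low for the peptide carrier SLC15A1, -4.45 against -2.30. Non-RB 1 was high for SLC40A1 (ferroportin, the iron exporter), -0.34 against -1.93, for SLC5A1, -2.78 against -4.77, and for SLC2A1, 3.84 against 2.92. RB 2 was high for SLC28A1, -2.89 against -5.78 without overlap.

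A list of 37 transporters with known roles in nutrient, ion or water movement of the ruminant uterus held 25 members, of which 23 were tested over 32 arrays. In the RB comparisons 0 of 23 in ipsilateral CAR, 0 of 22 in ipsilateral ICAR, 0 of 23 in contralateral CAR and 2 of 23 in contralateral ICAR (SLC2A1 and SLC43A2, both lower) had an unadjusted p under 0.05, beside 3.41%, 3.69%, 1.74% and 1.6% of all probes. The whole uterus gave 1, SLC43A2, beside 2.21%. Their medians were -0.15, -0.04, -0.13 and -0.29 over the 4 compartments, beside 0.02, -0.03, 0.001 and 0.02 for all probes. Without RB 3 the contralateral medians were -0.18 and -0.19. Between CAR and ICAR 2 of the list were higher in CAR (SLC1A3 and SLC7A5) and 3 lower (SLC1A1, SLC1A4 and SLC34A2) by that threshold, with all 32 arrays used, beside 8.69% and 7.55% of all probes.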

How the data were processed

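Endometrial RNA of 32 samples (8 groups of 4; ISOGEN extraction, Cy3-labelled cRNA from linear amplification) was hybridised by the authors to custom Agilent 15K bovine arrays. Per the labels the spots were quantified with Agilent Feature Extraction 9.5. The deposited scanner files hold the processed signal of each spot as intensity, background-corrected on a linear scale. The deposited series table holds log2 values that equalled log2 of that signal minus the 75th percentile of the array, within an offset of 0.0042 to 0.014 per array, and served as an alternative. The genome build is not given in the sources used here. The number of arrays limits the precision.

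From the scanner files, log2 of the processed signal minus log2 of the 75th percentile over non-control probes was taken, with spots flagged as outliers left out. A probe entered a compartment test when it was well above background on at least 2 of 8 arrays, and a test over all arrays when on at least 8 of 32, with at least 3 values per group. limma 3.58.1 (lmFit, eBayes) in R 4.3.3 was fitted over all probes, with Benjamini-Hochberg adjustment over all of them, and summaries were made in Python 3.11.15 with pandas 2.3.3 and numpy 2.4.6. The script was tested on simulated data. Groups came from the labels. For the whole uterus and the differences of RB effects, arrays of the same group and replicate number were averaged as 1 cow although the labels do not state that the number marks a cow. CAR against ICAR and horn tests treated the 32 arrays as samples, as did the whole-uterus fit with slide as a block. p-values measure only the spread between these samples, which may in part be technical. Exact permutation tests were two-sided. A group not above background on any array was given as a bound against the lowest signal well above background.

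The members and lists were chosen with earlier results of these data known. Named were the members the study gives a fold for (SLC5A3, SLC5A11, SLC2A1), the list of 37 uterine transporters, members past the adjusted threshold for CAR against ICAR (the 10 largest in each direction) and horns (5), and in RB comparisons and interactions the 5 with the smallest unadjusted p under 0.05 in each direction. All other members named, including the 18 of CAR against ICAR, were chosen after their values were seen. Reference symbols came from the RefSeq table of ARS-UCD2.0 for 86 of the 93 probes (44 by accession, 22 by symbol, 19 by gene ID, 1 by synonym), and 4 of these differed from the file's own name. Alternatives were the filter on dim probes, the deposited table, normexp background correction (offset 50), quantile normalization, the methods' t-test, 1 fit over 32 arrays, slide, scan session and replicate blocks, and leaving out each replicate. Added after seeing the data were fits without the slide 1 arrays, without the contralateral RB 3 arrays, and of CAR against ICAR within a group or horn. In 18 further probes a solute carrier was named in the accession column alone; these were no members.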

Additional observations from a re-analysis of the deposited data

Results flagged for a closer look

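In groups of 4 arrays or cows, 102 were looked at for 1 value far from the other 3 (by Dixon's ratio, whose limit chance passes in about 1 of 20 groups), and 7 were found. SLC28A1, the pyrimidine nucleoside carrier, gave 4 of them, all RB 2: -2.76 in ipsilateral ICAR (nearest -5.53), -3.33 in contralateral CAR (nearest -5.53), -2.69 in contralateral ICAR (nearest -5.57) and -2.89 as the mean of its 4 arrays (nearest -5.68). In ipsilateral CAR, RB 2 read -2.76 as well. SLC5A11, the myo-inositol carrier, was high in ipsilateral CAR of RB 4, at -4.12 with the nearest RB array at -5.97. SLC3A1, the heavy chain of the cystine carrier, was low in ipsilateral ICAR of RB 1, at -1.46 with the nearest at -0.70. SLC2A1 was high on the array labelled CAR contralateral RB 3, at 3.51 with the nearest at 2.44, which is 1 of the 2 arrays whose gland genes ran against their labels. No explanation of these values was tested.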

How the results depend on the processing

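The RB comparisons in the 4 compartments gave 0 members at an adjusted p under 0.05 (limma or the methods' t-test) under every alternative tried, leaving out each replicate included. The whole uterus gave 1 with the 32 arrays as independent samples (SLC5A7 spot ABR2766) and 1 with slide as a fixed block (SLC16A1). The slide fit also took the 32 arrays as independent samples, and only slides 6 and 8 held both RB and non-RB arrays. The cause was not tested. CAR against ICAR gave 0 as labelled, 3 with scan session as a block, 10 without both contralateral RB 3 arrays, and 0 to 6 when a replicate was left out (5 without non-RB 2, 6 without RB 3). The direction turned for SLC5A3 in ipsilateral ICAR without non-RB 2 (0.10, with the other replicates left out down to -0.58) and in contralateral ICAR with normexp (-0.24), slide (-0.41) or session (-0.41) as the setting. It turned for SLC5A11 with slide as a block in ipsilateral ICAR (0.31), contralateral ICAR (1.06) and the whole uterus (0.35) and with session in contralateral ICAR (0.67). It also turned for SLC28A1 in the whole uterus without RB 2 (-0.014, with the others left out up to 1.002) and for SLC38A3 between horns with normexp (0.0038). Of 1033 alternatives of 53 results on single genes, 974 kept direction and side of the threshold, 49 passed it and 10 turned; none could lose a call, as none was past the threshold to begin with. Members at an unadjusted p under 0.05 ranged from 1 to 11 in ipsilateral CAR, 1 to 11 in ipsilateral ICAR, 0 to 12 in contralateral CAR and 2 to 6 in contralateral ICAR. Normexp moved the median of all probes in contralateral ICAR from 0.02 to -0.20.

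Replicate numbers were shared between groups. Deviations of the same number correlated at a mean r of 0.13 between RB and non-RB (11 of 16 pairs over 0.1), against -0.05 (11 of 48) for different numbers. Not every pair exceeded 0.1, so the numbers were not taken to pair samples. Within non-RB it was 0.38 (21 of 24), against -0.12 (10 of 72), and within RB 0.41 (22 of 24), against -0.14 (15 of 72). With the replicate block the RB comparisons gave 0 members at the adjusted threshold, and 3, 7, 3 and 5 unadjusted in the 4 compartments (beside 5.82%, 4.98%, 1.85% and 2.98% of probes) and 7 in the whole uterus (4.54%). For CAR against ICAR the replicate block with the cow fixed gave 7 members (beside 8.41% of probes): SLC1A3, SLC5A2, SLC26A11, SLC22A17, SLC2A12, SLC31A2 and SLC18A2. It gave 21 without the contralateral RB 3 arrays (19.1%). With 1 difference per cow it gave 0, with 22 unadjusted (16.9%).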

Other observations

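A further 18 probes named a solute carrier in the accession column alone and stood outside the set described above. The RB values below were picked for an unadjusted p under 0.05 in limma. SLC7A2, a carrier of cationic amino acids, was 1.04 higher in ipsilateral CAR of RB cows (unadjusted p = 0.0423, adjusted p = 0.9997). It was 0.89 higher in CAR than in ICAR (unadjusted p = 0.00562, adjusted p = 0.107). A second probe of SLC12A2, the sodium, potassium and chloride cotransporter, was -0.69 in ipsilateral CAR of RB cows (unadjusted p = 0.0375, adjusted p = 0.9997). A probe of SLC4A5, a bicarbonate carrier, was -0.69 in ipsilateral ICAR (unadjusted p = 0.0469, adjusted p = 0.863). Another SLC4A5 probe was -0.48 there (unadjusted p = 0.089). SLC26A4, an anion exchanger above background on 7 arrays, was -1.06 in contralateral CAR (unadjusted p = 0.0368, adjusted p = 0.9998). SLC9A3R2, a scaffold protein that binds carriers, gave an RB difference that was -0.40 between horns (unadjusted p = 0.0434, adjusted p = 0.799).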
